A study of Mus musculus with 12 samples.

Results

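The 10 genes described here belong to the circadian clock: Arntl, Clock, Npas2, Dbp, Tef, Hlf, Nr1d1, Per2, Per3 and Ciart. They were taken by gene symbol from the count table, each symbol named 1 gene, and all 10 of the 49585 genes in the table were among the 18556 with enough counts to be tested. Poly(A) RNA of whole lungs was sequenced from C57BL/6J mice that carried MO4, a melanoma line placed under the skin. The 12 libraries formed 4 groups of 3, all from tumour-bearing mice. Mice of 2 months were given an antibody against PD-1, a receptor that restrains activated T cells, and form the young anti-PD-1 group. The other 3 groups were mice of 22 months. The aged control group was given a rat antibody of matched isotype and the aged anti-PD-1 group the antibody against PD-1. The combination group was given that antibody with a second one against the receptor for the cytokine IL-21. The antibodies were injected into the peritoneum, with anti-PD-1 and the control antibody given on days 3, 7 and 11 after inoculation. No young mice without anti-PD-1 and no mice without a tumour were analysed here.

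The circadian clock is a loop of transcription and translation that runs in most cells, the lung included. ARNTL (also called BMAL1) pairs with CLOCK or its relative NPAS2 and switches on genes that carry E-box sequences, among them the Per and Cry genes, Nr1d1, Dbp and Ciart, whose products either hold the loop back or carry the rhythm onward. In mouse tissues Arntl and Npas2 peak at roughly the opposite time of day to Nr1d1 and Dbp, so the level of these genes in a tissue depends on the hour at which it was taken. The labels give no hour of collection for any group, and no batch, so hour and group cannot be told apart in what follows.

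The promoters of 4 members held a named clock sequence, and those stretches are shown so that the matched letters can be read in place. Windows of 250 bases before the transcription start were taken from RefSeq on GRCm38.p6, the assembly also called mm10, and 9 of the 10 genes had one (13 windows in all, since some genes have several starts). Each window was searched on both strands for the E-box CACGTG, the E-prime box CACGTT, the D-box TTATGTAA and the ROR element. Ciart held 3 E-boxes, Tef 1 in each of its windows, Nr1d1 an E-prime box and Per3 a pair of D-boxes, the sequence that DBP, TEF and HLF bind. The other 5 genes with a window held none of these letters in it. Across 32817 promoter windows, 6.02% held the E-box, 3.85% the E-prime box, 0.817% the D-box and 0.332% the ROR element, which no member held. Each sequence is written 5′ to 3′ on the strand of its gene, with the matched motif in capitals. The Per3 stretch is chr4:151044666-151044915 (minus strand), that of Nr1d1 is chr11:98775378-98775627 (minus strand) and that of Ciart is chr3:95882252-95882478 (minus strand). The Tef pieces are chr15:81802534-81802563 and chr15:81811264-81811293 (plus strand). A match is a run of letters and does not show that a factor was bound there.
Per3: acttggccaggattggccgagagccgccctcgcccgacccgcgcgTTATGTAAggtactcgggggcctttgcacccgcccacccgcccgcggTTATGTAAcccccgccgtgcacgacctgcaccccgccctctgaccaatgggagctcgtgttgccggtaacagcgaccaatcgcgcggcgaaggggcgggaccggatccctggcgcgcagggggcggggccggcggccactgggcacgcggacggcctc
Nr1d1: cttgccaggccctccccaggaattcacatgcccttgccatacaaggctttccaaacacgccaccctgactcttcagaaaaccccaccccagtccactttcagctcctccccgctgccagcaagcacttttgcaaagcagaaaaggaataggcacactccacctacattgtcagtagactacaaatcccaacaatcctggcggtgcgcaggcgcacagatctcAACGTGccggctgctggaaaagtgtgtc
Ciart: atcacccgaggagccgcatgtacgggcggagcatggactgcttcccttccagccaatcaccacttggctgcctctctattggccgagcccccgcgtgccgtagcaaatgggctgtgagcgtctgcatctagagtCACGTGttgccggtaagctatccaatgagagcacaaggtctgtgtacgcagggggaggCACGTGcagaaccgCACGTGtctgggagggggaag
Tef, window 1: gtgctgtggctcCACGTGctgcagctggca
Tef, window 2: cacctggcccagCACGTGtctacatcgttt

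Across the libraries counted reads ran from 16021877 to 22058620. Mitochondrially encoded transcripts took 11.5% to 14.9% of them in combination libraries, 7.88% to 11.9% in aged anti-PD-1 libraries and 6.05% to 10.4% in the other 2 groups. Haemoglobin transcripts took 1.76% to 3.98%, 1.06% to 1.30% and 1.26% to 1.99% in the same order. The part of these shares in the clock values was not tested. Levels are given in CPM (read counts relative to the library total after TMM scaling, which corrects for library make-up), and levels of different genes are compared in RPKM (CPM per kilobase of exon). Fold changes are log2 values ± SE from an edgeR quasi-likelihood fit to all 12 libraries. A gene is called where its p, adjusted over the 18556 genes by the Benjamini-Hochberg method, was under 0.05. The labels do not say whether libraries of a group are separate mice, and the p-values then measure only the spread between these samples, which may be technical. Markers of lung (Sftpc, Sftpb, Ager, Scgb1a1, Foxj1, Pecam1, Cldn5 and Col1a1) were present in every library, with a summed level of 26931 to 52002 CPM. In a whole organ, fewer cells of a type and less RNA per cell cannot be told apart.

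The clock genes that were called differed between the aged anti-PD-1 group and 1 or more of the other 3 groups, and only Per3 was called against all 3. In libraries 2 and 3 of that group Arntl and Npas2 were low and Dbp, Tef, Hlf, Per2 and Per3 were high, while library 1 of the same group lay close to the aged control and combination libraries for most of these genes. The plot of levels by library shows this for each gene.

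**Figure D1:**
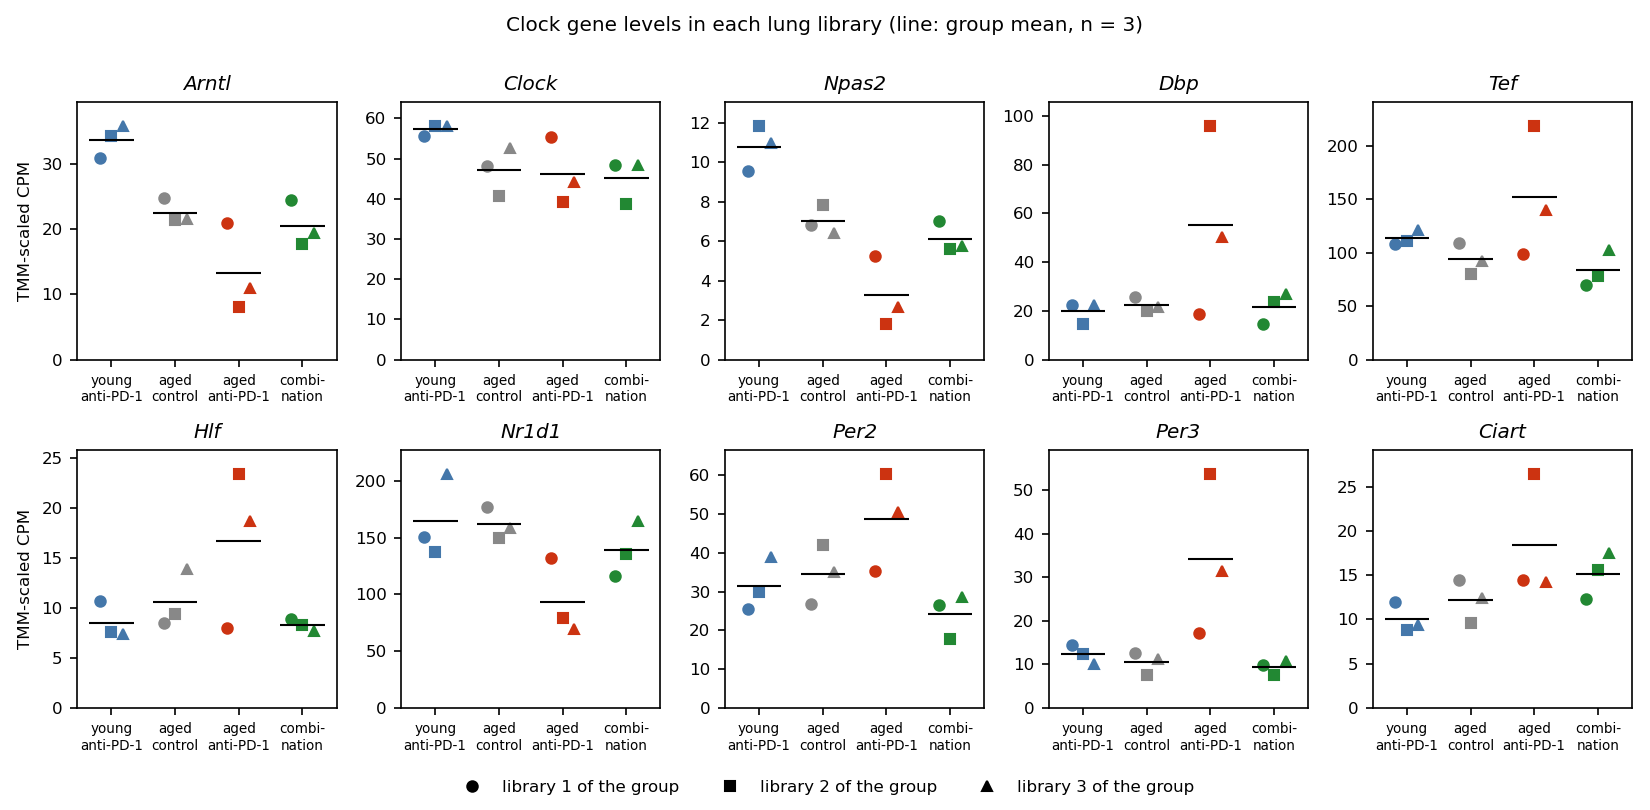
Level of each clock gene (vertical axes, TMM-scaled CPM, from 0) in the 12 lung libraries, by group; points are libraries, with shapes for the library number, and lines are means of 3. Libraries 2 and 3 of the aged anti-PD-1 group hold the lowest Arntl and Npas2 values and the highest Dbp, Per2 and Per3 values of the 12.

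Arntl (chromosome 7, 113207465 to 113314126, plus strand) encodes the partner of CLOCK and NPAS2 in the activating complexes described above. Its level was 30.8, 34.2 and 35.8 CPM in the young anti-PD-1 libraries 1 to 3, and 24.7, 21.3 and 21.5 CPM in the aged control libraries. It was 20.96, 7.99 and 11.0 CPM in the aged anti-PD-1 libraries and 24.4, 17.7 and 19.5 CPM in the combination libraries. All 3 young libraries lay above all 9 aged ones, and the aged anti-PD-1 libraries 2 and 3 lay below all others. Arntl was lower in aged than in young anti-PD-1 lungs by -1.33 ± 0.26 (adjusted p = 0.00587, edgeR), a call that held without any single library. Against the aged control its difference was -0.75 ± 0.26 and did not pass (adjusted p = 0.0795, edgeR), and without aged anti-PD-1 library 1 it was -1.25 (adjusted p = 0.00593, edgeR). It was -0.49 without aged anti-PD-1 library 2 (adjusted p = 0.195, edgeR) and -0.63 without aged anti-PD-1 library 3 (adjusted p = 0.218, edgeR). The aged control group also lay below the young group, but that pair differs in age and in antibody and was not tested.

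Npas2 (chromosome 1, 39193731 to 39363236, plus strand), whose protein can stand in for CLOCK, followed Arntl at a lower level. It reached 9.54, 11.9 and 11.0 CPM in young anti-PD-1 libraries, 6.80, 7.84 and 6.41 CPM in aged control, 5.25, 1.81 and 2.69 CPM in aged anti-PD-1 and 7.03, 5.63 and 5.74 CPM in combination libraries. All 3 aged anti-PD-1 libraries lay below all 9 others. Npas2 fell by 1.71 ± 0.28 against young anti-PD-1 (adjusted p = 0.00200, edgeR) and by 1.09 ± 0.28 against aged control (adjusted p = 0.0276, edgeR). The second call was lost without aged anti-PD-1 library 2 (-0.81, adjusted p = 0.0779, edgeR), without its library 3 (-0.97, adjusted p = 0.0948, edgeR) or without aged control library 2 (-1.01, adjusted p = 0.0851, edgeR). In the combination group Npas2 was 0.90 ± 0.29 above aged anti-PD-1, short of the threshold (adjusted p = 0.0635, edgeR).

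Clock (chromosome 5, 76209868 to 76304792, minus strand), the usual partner of ARNTL and a gene with little daily swing in most tissues, differed least. Its mean was 57.3 ± 1.51 CPM in young anti-PD-1, 47.2 ± 6.07 CPM in aged control, 46.2 ± 8.38 CPM in aged anti-PD-1 and 45.2 ± 5.62 CPM in combination lungs (SD, n = 3 each). The 3 aged groups did not differ beyond their spread, and its largest difference, -0.31 ± 0.14 between aged and young anti-PD-1, did not pass (adjusted p = 0.145, edgeR).

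Dbp, Tef and Hlf encode related leucine zipper activators that bind D-boxes and pass the rhythm to genes of metabolism. Dbp (chromosome 7, 45705088 to 45710203, plus strand) was 18.9, 96.0 and 50.3 CPM in the aged anti-PD-1 libraries 1 to 3. In the other 9 libraries it lay between 14.8 and 27.0 CPM, so that library 1 fell inside that range and libraries 2 and 3 far above it. The fitted differences of Dbp were large but so was their error: 1.46 ± 0.47 against young anti-PD-1 (adjusted p = 0.0640, edgeR), 1.30 ± 0.47 against aged control (adjusted p = 0.101, edgeR), and -1.34 ± 0.47 for combination against aged anti-PD-1 (adjusted p = 0.104, edgeR). None passed, and without aged anti-PD-1 library 1 all 3 did, at 1.87, 1.71 and -1.75 (adjusted p = 0.00267, 0.0137 and 0.0172, edgeR). Without library 2 of that group none did, at 0.79, 0.63 and -0.67 (adjusted p = 0.182, 0.292 and 0.298, edgeR). Nor did any without its library 3, at 1.52, 1.36 and -1.40 (adjusted p = 0.134, 0.175 and 0.166, edgeR).

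Tef (chromosome 15, 81802421 to 81826861, plus strand), with the E-box pieces shown above, had the same order of libraries. It was 98.5, 219 and 139.8 CPM in aged anti-PD-1, 108, 111 and 121 CPM in young anti-PD-1, 109, 80.5 and 92.1 CPM in aged control, and 70.3, 78.5 and 103 CPM in combination libraries. Libraries 2 and 3 of aged anti-PD-1 were the highest of the 12, and library 1 lay among the rest. Tef was lower in combination than in aged anti-PD-1 lungs (-0.86 ± 0.24, adjusted p = 0.0395, edgeR), and this call was lost in 8 of the 12 fits that left out 1 library. These left out aged anti-PD-1 library 2 (-0.51, adjusted p = 0.127) or 3 (-0.92, adjusted p = 0.0669), combination library 1 (-0.75, adjusted p = 0.0999) or 2 (-0.83, adjusted p = 0.145), aged control library 3 (-0.86, adjusted p = 0.0542), or any young library (-0.86 to -0.87, adjusted p = 0.0530 to 0.0574, edgeR).

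Hlf (chromosome 11, 90336536 to 90390895, minus strand) was 8.02, 23.4 and 18.7 CPM in aged anti-PD-1 libraries and between 7.35 and 13.9 CPM in the other 9. It again had library 1 within the range of the other groups and libraries 2 and 3 above it. No difference of Hlf passed in the fit of all 12 libraries. The nearest was 0.96 ± 0.31 against young anti-PD-1 (adjusted p = 0.0560, edgeR). Next came -1.01 ± 0.32 for combination against aged anti-PD-1 (adjusted p = 0.0661, edgeR). DESeq2 called both (adjusted p = 0.0153 and 0.0160). Without aged anti-PD-1 library 1 both passed, at 1.30 and -1.35 (adjusted p = 0.00307 and 0.0139, edgeR). The rise against aged control then did too (0.99, adjusted p = 0.0251, edgeR). Without library 2 or 3 of that group none passed (adjusted p = 0.150 to 0.543, edgeR).

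Nr1d1 (chromosome 11, 98767932 to 98775333, minus strand) encodes REV-ERBα, a nuclear receptor that represses Arntl and Npas2. It was 150.1, 137 and 206 CPM in young anti-PD-1, 177, 149.97 and 158 CPM in aged control, 132, 79.0 and 69.2 CPM in aged anti-PD-1, and 116, 135 and 164 CPM in combination libraries. Libraries 2 and 3 of aged anti-PD-1 were the lowest of the 12, the side on which Arntl lay and not that of Dbp. Nr1d1 fell by 0.81 ± 0.22 against young anti-PD-1 (adjusted p = 0.0284, edgeR) and by 0.79 ± 0.22 against aged control (adjusted p = 0.0407, edgeR).
Both calls lie near the threshold. The first was lost without aged anti-PD-1 library 2 (-0.71, adjusted p = 0.0956), its library 3 (-0.64, adjusted p = 0.113) or young library 3 (-0.59, adjusted p = 0.145, edgeR). The second was lost in 7 of 12 such fits, at -0.61 to -0.84 and adjusted p = 0.0520 to 0.132 (edgeR): without aged anti-PD-1 library 2 or 3, any aged control library, young library 1 or combination library 2. Nr1d1 shares 263 exonic bases with Thra, a thyroid hormone receptor gene on the other strand, and the strand setting of the read counting is not given in the sources used here. Thra was lower in the same 2 comparisons, by -0.62 (adjusted p = 0.00812) and -0.49 (adjusted p = 0.0320, edgeR). It was also higher in combination than in aged anti-PD-1 lungs (0.46, adjusted p = 0.0458, edgeR), where Nr1d1 was not called. Whether reads of the pair were kept apart where their exons overlap was not tested. Such overlaps also join Dbp with Sphk2 (539 bases), Tef with Gm17597 (193 bases) and Arntl with Gm45355 (33 bases), and Sphk2, a sphingosine kinase gene, was itself 40.4, 76.8 and 54.1 CPM in aged anti-PD-1 libraries and 38.7 to 48.3 CPM elsewhere.

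Per3 (chromosome 4, 151003652 to 151044665, minus strand), a period gene whose promoter holds the D-box pair, gave the clearest rise. It was 17.2, 53.7 and 31.3 CPM in aged anti-PD-1, 14.4, 12.3 and 10.1 CPM in young anti-PD-1, 12.6, 7.45 and 11.3 CPM in aged control, and 9.73, 7.61 and 10.8 CPM in combination libraries. All 3 aged anti-PD-1 libraries, library 1 included, lay above all 9 others. Per3 rose by 1.47 ± 0.33 against young anti-PD-1 (adjusted p = 0.0127, edgeR) and by 1.70 ± 0.34 against aged control (adjusted p = 0.0120, edgeR), and it was lower in combination than in aged anti-PD-1 lungs by -1.86 ± 0.34 (adjusted p = 0.0103, edgeR). These 3 calls held without aged anti-PD-1 library 1, 2 or 3. They were lost without young library 3 (1.37, adjusted p = 0.0622), aged control library 2 (1.51, adjusted p = 0.0589) and combination library 2 (-1.74, adjusted p = 0.0620, edgeR), in that order. The first was also lost with no filter on counts (1.46, adjusted p = 0.0644, edgeR). The third was also lost in a fit of only its 2 groups (-1.85, adjusted p = 0.0596, edgeR).

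Per2 (chromosome 1, 91415982 to 91459324, minus strand), a core repressor that acts with the cryptochromes, was 35.4, 60.4 and 50.5 CPM in aged anti-PD-1 libraries. It was 25.4, 29.9 and 39.1 CPM in young anti-PD-1, 26.8, 42.1 and 35 CPM in aged control and 26.4, 17.8 and 28.6 CPM in combination libraries. The aged anti-PD-1 and combination groups did not overlap, and aged anti-PD-1 library 1 lay inside the range of the other 2 groups. Per2 was lower in combination than in aged anti-PD-1 lungs by -1.004 ± 0.24 (adjusted p = 0.0231, edgeR), and the call was lost without aged anti-PD-1 library 2 (-0.82, adjusted p = 0.0793), its library 3 (-0.98, adjusted p = 0.0578) or combination library 2 (-0.83, adjusted p = 0.109, edgeR).

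Ciart (chromosome 3, 95878503 to 95882251, minus strand), whose product CHRONO represses the ARNTL complex, was 14.5, 26.4 and 14.2 CPM in aged anti-PD-1 and 11.96, 8.81 and 9.41 CPM in young anti-PD-1 libraries. It was 14.4, 9.54 and 12.5 CPM in aged control and 12.3, 15.5 and 17.5 CPM in combination libraries. Here library 2 alone of the aged anti-PD-1 group stood above the rest. Ciart rose by 0.87 ± 0.24 against young anti-PD-1 (adjusted p = 0.0300, edgeR). That call was lost without aged anti-PD-1 library 2 (0.51, adjusted p = 0.126), young library 2 (0.78, adjusted p = 0.109) or young library 3 (0.85, adjusted p = 0.102, edgeR).

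Counted by comparison, 5 of the 10 genes were called between aged and young anti-PD-1 lungs, with Per3 and Ciart higher and Arntl, Npas2 and Nr1d1 lower in aged lungs. Of all genes tested, 8.09% were called higher and 7.16% lower there. Between aged anti-PD-1 and aged control lungs 3 were called, Per3 higher and Npas2 and Nr1d1 lower, where 5.34% of all genes were higher and 5.58% lower. Between combination and aged anti-PD-1 lungs 3 were called, Per3, Per2 and Tef, all lower, where 4.67% of all genes were higher and 4.35% lower. Comparisons that share the aged anti-PD-1 libraries are not independent of each other. In the test for any difference among the 4 groups Arntl, Npas2, Per2 and Per3 were called, 4 of 10 where 22.6% of all genes were. Over all 5 tests Clock, Dbp and Hlf were not called. With aged anti-PD-1 libraries 2 and 3 left out together, a fit that assumes the lone library to vary like the other groups, 0, 0 and 0 of the 10 genes were called in the first 3 comparisons, where 199, 8 and 49 of 19525 genes were. With library 1 left out instead, 10, 7 and 8 were called, where 2237, 1057 and 584 of 18901 genes were.

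Between combination and aged control lungs no clock gene was called, and of all genes 0% were called higher and 0% lower. At an unadjusted p under 0.05 in the same edgeR test, 0 of the 10 members and 1228 of all genes (6.62%) passed, and DESeq2 called 0 members and 76 genes, limma-voom 0 members and 0 genes. The differences of the 10 genes ran from -0.51 ± 0.24 (Per2) to 0.31 ± 0.24 (Ciart), with a median of -0.16, beside -0.01 for all genes. The median over the 10 genes was 0.53, 0.54 and -0.57 in the other 3 comparisons, in the order above, beside -0.01, -0.02 and -0.01 for all genes. The plot of fold changes sets the 4 comparisons side by side.

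**Figure D2:**
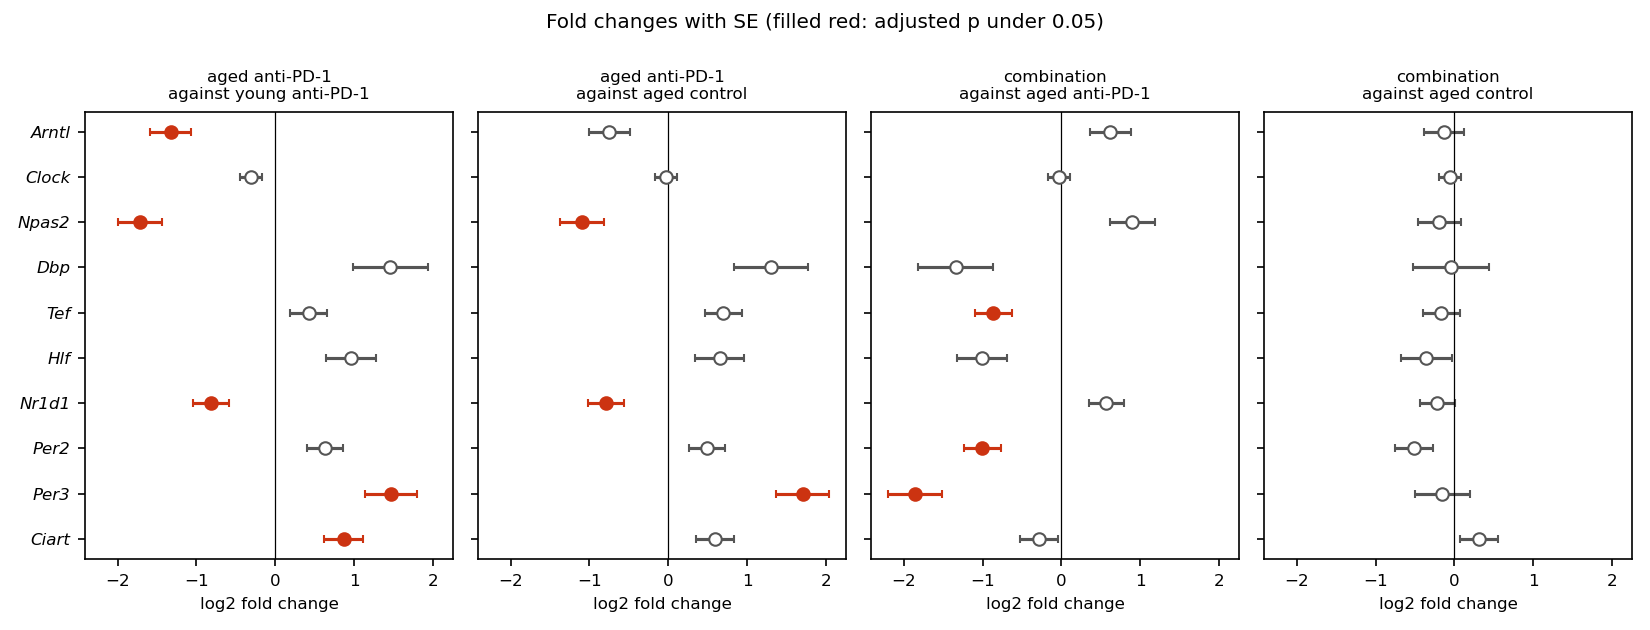
Log2 fold change ± SE of each clock gene in the 4 comparisons (edgeR fit, 3 libraries a group), with filled red points for an adjusted p under 0.05. Of the 10 genes, 5, 3, 3 and 0 are filled from left to right, and Per3 is filled in the first 3 panels.

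The order of levels between the genes, in RPKM, also differed. In the aged control group Nr1d1 led with 52.5 RPKM, followed by Tef with 11.9, Dbp with 7.46, Per2 with 5.92, Ciart with 5.37, Clock with 3.44, Arntl with 2.99, Hlf with 1.58, Npas2 with 1.47 and Per3 with 1.09 RPKM. In the aged anti-PD-1 group the mean of Nr1d1 was 30.4, of Tef 19.4, of Dbp 18.4, of Arntl 1.77 and of Npas2 0.679 RPKM. These means join unlike libraries. In libraries 1 to 3 of that group Nr1d1 was 43.0, 25.7 and 22.5 RPKM. Tef was 12.5, 27.8 and 17.8 RPKM and Dbp 6.30, 32.1 and 16.8 RPKM, so Dbp stood above Nr1d1 in library 2 alone. Per3, last of the 10 in aged control lungs, stood at 3.55 RPKM in aged anti-PD-1 lungs. The ratio of Dbp to Arntl in RPKM compares transcripts whose levels depend on the hour of collection, which is not given. It was 1.08 to 1.84 in young anti-PD-1, 2.34 to 2.61 in aged control and 1.52 to 3.48 in combination libraries, and 2.26, 30.2 and 11.5 in aged anti-PD-1 libraries 1 to 3.

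A single score per library was formed as the mean log2 CPM, centred for each gene over the 12 libraries, of Dbp, Tef, Hlf, Nr1d1, Per2, Per3 and Ciart less that of Arntl, Clock and Npas2. It was -0.05, 2.15 and 1.19 in aged anti-PD-1 libraries 1 to 3, -0.93 to -0.52 in young anti-PD-1, -0.29 to -0.09 in aged control and -0.53 to 0.03 in combination libraries. Group means were -0.72 ± 0.20, -0.18 ± 0.10, 1.1 ± 1.1 and -0.21 ± 0.29 for young anti-PD-1, aged control, aged anti-PD-1 and combination (SD, n = 3 each). Aged anti-PD-1 library 1 thus lay between the highest and lowest combination libraries on this score. No test is given for it, since its genes were chosen with earlier results of these data known.

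The spread between libraries of a group was also read for these genes. For all 10 the SD of log2 CPM was largest in the aged anti-PD-1 group, which held the largest SD for 19.4% of all genes tested. For Per2 the lead was small, with 0.39 there and 0.36 in the combination group. Some of the 10 genes vary together, as given below, so they are not 10 separate observations. Within that group the SD was 1.18 for Dbp, 0.82 for Per3, 0.81 for Hlf, 0.75 for Npas2, 0.70 for Arntl, 0.58 for Tef, 0.51 for Ciart, 0.49 for Nr1d1, 0.39 for Per2 and 0.26 for Clock, where the median of all genes was 0.17. Pooled over groups, the SD of Dbp was 0.66, at percentile 94.6 of all genes, and that of Clock was 0.19, at percentile 40.2. In the aged control group, where the median gene had an SD of 0.22, the 10 genes lay on both sides of it, from 0.12 for Arntl and Nr1d1 to 0.37 for Hlf and 0.39 for Per3. In the young anti-PD-1 group (median 0.15) most of the 10 lay above it, from 0.04 for Clock to 0.35 for Dbp. Most also lay above it in the combination group (median 0.20), from 0.11 for Hlf to 0.45 for Dbp.

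**Figure D3:**
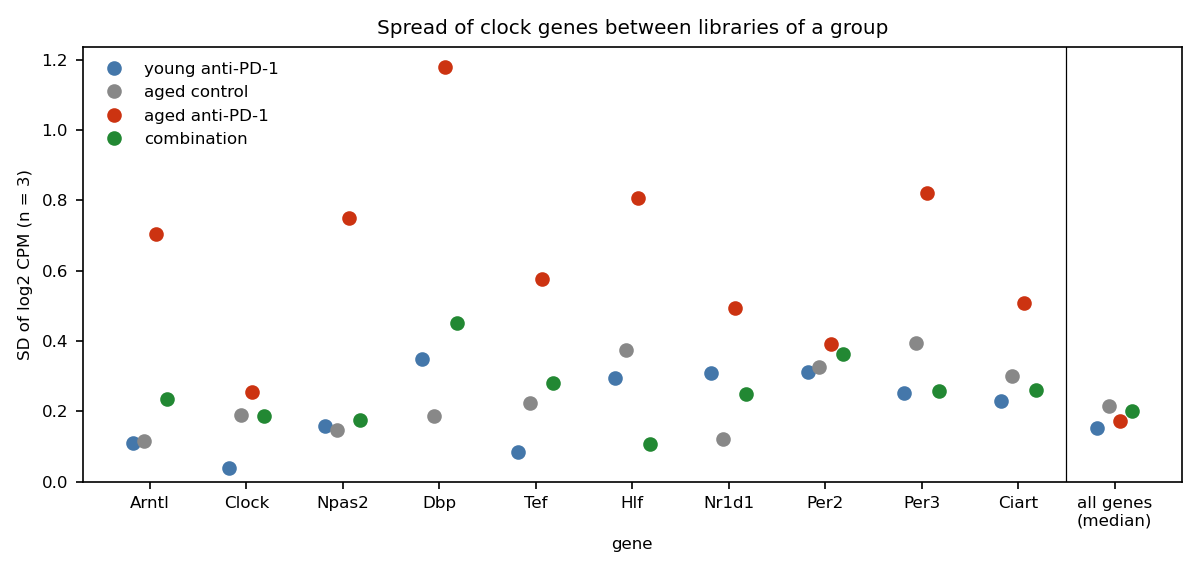
SD of log2 CPM over the 3 libraries of each group (vertical axis) for the 10 clock genes and, at the right, the median SD of all genes tested. The red points (aged anti-PD-1) are the highest for each clock gene, from 0.26 for Clock to 1.18 for Dbp, while the median of all genes in that group is 0.17.

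Some pairs of the genes varied together, and others did not. Across the 12 libraries Arntl and Npas2 had a Pearson correlation of 0.982 in log2 CPM (0.949 for deviations from group means), and Arntl and Clock 0.754 (0.786). Arntl and Dbp had -0.862 (-0.903), Npas2 and Dbp -0.874 (-0.960), Dbp and Tef 0.847 (0.913), and Tef and Per3 0.885 (0.847). Other pairs were loosely related, such as Per2 and Ciart with 0.218 (0.006) and Per2 and Per3 with 0.700 (0.312). These are descriptions over 12 libraries that share their scaling. In the 9 libraries outside the aged anti-PD-1 group Arntl and Npas2 still had 0.944, but Arntl and Dbp had -0.371, Dbp and Per3 0.050 (0.843 in 12 libraries), Dbp and Hlf 0.026 (0.831 in 12), and Arntl and Tef 0.658 (-0.545 in 12). Nr1d1 and Dbp changed sign, from -0.656 over 12 libraries to 0.659 over the 9, and Nr1d1 and Arntl had 0.814 and 0.290. Npas2 and Ciart had -0.850 over 12 libraries and -0.860 over the 9.

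**Figure D4:**
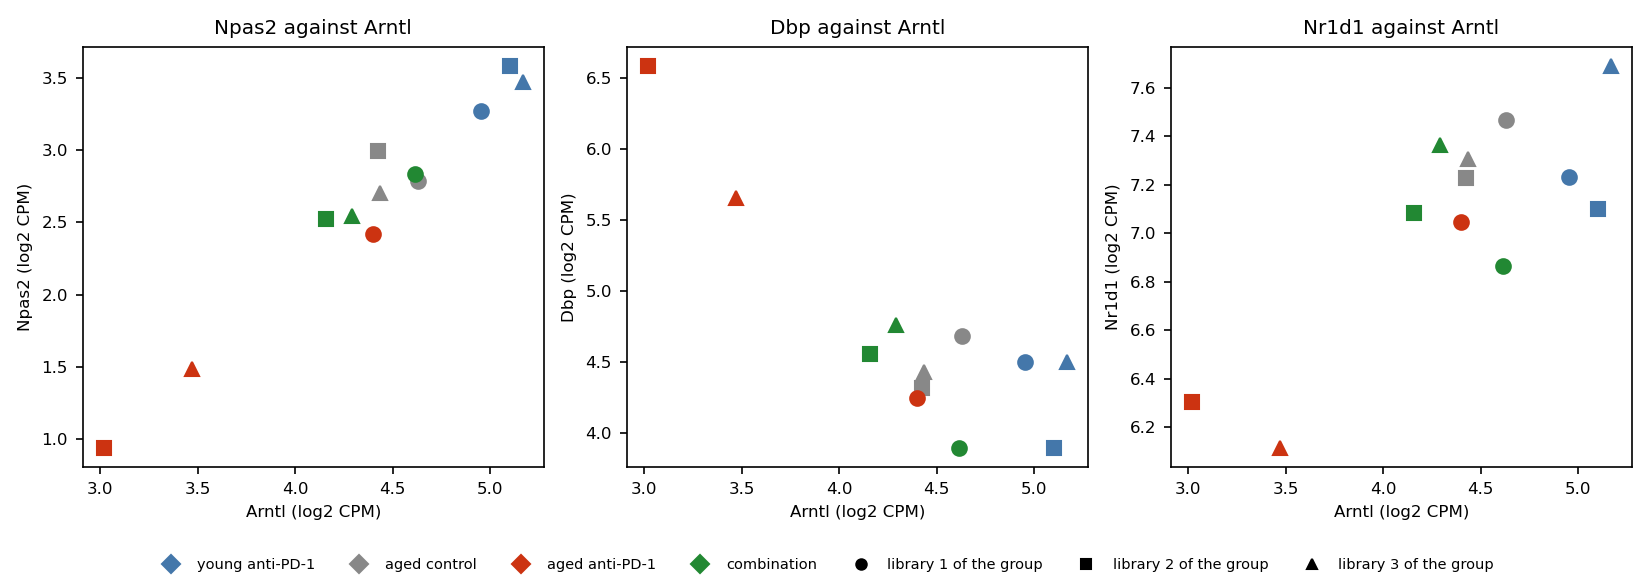
Npas2, Dbp and Nr1d1 (vertical axes) against Arntl (horizontal axes), in log2 CPM, with 1 point per library, colours for groups and shapes for library numbers. Npas2 and Arntl have a correlation of 0.982 over the 12 points, with some neighbours out of order, whereas the high Dbp and low Nr1d1 values at low Arntl belong to aged anti-PD-1 libraries 2 and 3.

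Of 17 other genes of the clock (further Per, Cry, Nr1d, Ror and Bhlhe genes, Nfil3, kinases, F-box genes, Timeless and Arntl2), 11 were called in none of the 4 comparisons. The matching share of all genes was not counted. Between aged and young anti-PD-1 lungs 3 of 17 rose and 1 fell, where 8.09% of all genes were higher and 7.16% lower. Per1, the period gene that also answers to glucocorticoids, rose by 0.48 ± 0.12 (adjusted p = 0.0183, edgeR), Nr1d2, the close relative of Nr1d1, by 0.59 ± 0.19 (adjusted p = 0.0490, edgeR), and Timeless, which works at the replication fork, by 0.72 ± 0.23 (adjusted p = 0.0480, edgeR). Bhlhe40, a repressor of E-box genes, fell by 0.72 ± 0.19 (adjusted p = 0.0210, edgeR). Against aged control 1 of 17 rose and 2 fell, where 5.34% of all genes were higher and 5.58% lower. There Timeless rose by 1.25 ± 0.23 (adjusted p = 0.00801, edgeR), while Bhlhe40 fell by 0.86 ± 0.19 (adjusted p = 0.0159, edgeR). Nfil3, the repressor that competes with DBP at D-boxes, fell by 0.67 ± 0.18 (adjusted p = 0.0346, edgeR).

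Between combination and aged anti-PD-1 lungs 2 of 17 were higher and 2 lower, where 4.67% of all genes were higher and 4.35% lower. In the combination group Bhlhe40 was 1.00 ± 0.19 above aged anti-PD-1 (adjusted p = 0.00993, edgeR) and Nfil3 0.73 ± 0.18 above it (adjusted p = 0.0286, edgeR). Cry2, a core repressor, was lower there by -0.52 ± 0.11 (adjusted p = 0.0144, edgeR) and Timeless by -0.81 ± 0.23 (adjusted p = 0.0443, edgeR). None of the 17 was called between combination and aged control (Cry2 was at -0.52 ± 0.11, adjusted p = 0.291, edgeR), and 5 of 17 were called for any difference among groups, near the 22.6% of all genes. Nr1d2 did not share the low values of Nr1d1: it was 71.1, 129.6 and 110 CPM in aged anti-PD-1 libraries and 59.3 to 83.3 CPM in the rest, with libraries 2 and 3 above all others, as for Dbp. Per1 had no such order within the group, at 323, 294 and 248 CPM.

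**Figure D5:**
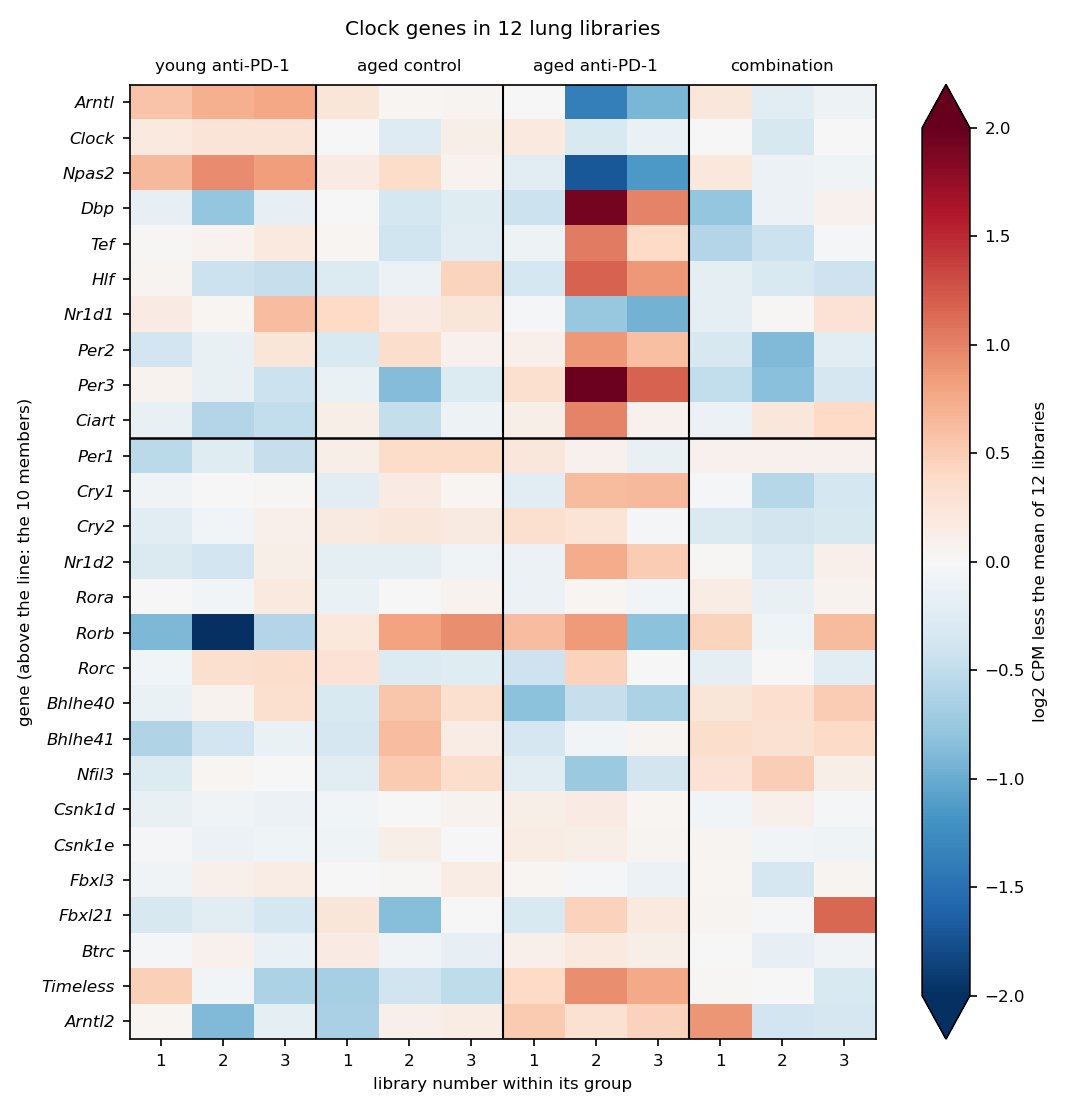
Log2 CPM less the mean of 12 libraries (colour, clipped at -2 and 2) for the 10 clock genes above the line and 17 other clock genes below it, with libraries in columns by group. Columns 2 and 3 of the aged anti-PD-1 group are blue for Arntl, Npas2 and Nr1d1 and red for Dbp, Tef, Hlf, Per2 and Per3, and column 1 is pale for most of these genes.

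A list of 8 genes known to cycle with the clock in many tissues (Usp2, Wee1, Tsc22d3, Tspan4, Nampt, Klf9, Klf10 and Cys1) was also read. Between aged and young anti-PD-1 lungs 1 of 8 rose, Tsc22d3 (0.95 ± 0.14, adjusted p = 0.00134, edgeR), and 1 fell, Klf10 (-0.61 ± 0.15, adjusted p = 0.0148, edgeR), where 8.09% of all genes were higher and 7.16% lower. Klf10 alone was called against aged control (-0.80 ± 0.15, adjusted p = 0.00745, edgeR). In combination against aged anti-PD-1 lungs Klf10 was higher (0.57 ± 0.15, adjusted p = 0.0299, edgeR) and Wee1, a kinase that delays mitosis, lower (-1.002 ± 0.20, adjusted p = 0.0128, edgeR). None of the 8 was called between combination and aged control. Tspan4 had the order of Dbp, at 36.2, 86.8 and 64.9 CPM in aged anti-PD-1 libraries and 32.5 to 45.9 CPM elsewhere, and was not called.

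The genes whose levels were most like the score were sought among 10739 genes whose average log2 CPM was 3 or more, members and predicted genes left out. The 8 most alike were Myrip (r = 0.934 over 12 libraries), Slc46a3 (0.920), Sspn (0.908), Sphk2 (0.902), Stard7 (0.899), Dusp6 (0.893), Ppm1k (0.886) and Nr1d2 (0.874). The 8 most opposite were Spon2 (-0.951), Tjp3 (-0.936), Leo1 (-0.931), Gnpnat1 (-0.919), Eif2s2 (-0.916), Ube2q2 (-0.915), Creb3l1 (-0.905) and Cxcl15 (-0.895). Myrip was 17.3, 33.4 and 26.1 CPM in aged anti-PD-1 libraries and 10.6 to 15.1 CPM elsewhere, and Spon2 was 19.2, 6.03 and 8.78 CPM against 20.6 to 39.0 CPM. In the 9 libraries outside that group the likeness of Myrip was 0.438 and that of Slc46a3 0.197, and that of Spon2 was -0.661 and that of Cxcl15 -0.819. Most like Dbp alone were Sphk2 (0.960), which overlaps it, Sspn (0.932), Slc46a3 (0.907), Tspan4 (0.892) and Nr1d2 (0.865). Over the 9 libraries Sphk2 had 0.879 and Sspn 0.915, but Slc46a3 had 0.219, Tspan4 0.135 and Nr1d2 0.234. Most like Arntl were Tjp3 (0.943), Spon2 (0.942), Gnl2 (0.941), Lsr (0.915) and Il18r1 (0.911). Over the 9 these had 0.743, 0.745, 0.925, 0.851 and 0.947, in that order.

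Genes of other cell types and of the stress response differed between the same groups, and their part in the clock values was not tested. All 4 markers of mesothelium (Msln, Upk3b, Wt1 and Lrrn4) were lower in aged anti-PD-1 lungs than in young anti-PD-1 and aged control lungs, with a summed level of 64.7 to 96.2 CPM against 177 to 312 and 173 to 311 CPM. Of the 4 neutrophil markers (S100a8, S100a9, Ly6g and Retnlg) 3 were lower in aged anti-PD-1 than in aged control lungs and 3 were higher in combination than in aged anti-PD-1 lungs, with a summed level of 480 to 673 CPM in aged anti-PD-1, 1263 to 1914 CPM in aged control and 1180 to 1637 CPM in combination libraries. All 4 B cell markers were higher in aged than in young anti-PD-1 lungs. Of 7 glucocorticoid response genes 3 were higher in aged than in young anti-PD-1 lungs, Fkbp5 (1.43), Zbtb16 (1.26) and Tsc22d3, and the other 4 were not called there. Against aged control 0 of the 7 were higher and 1 was lower, Cdkn1a (-0.61). Fkbp5 (-0.87) and Zbtb16 (-1.35) were lower in combination than in aged anti-PD-1 lungs. Of the melanoma markers Pmel, Tyr, Dct and Mlana, 2 of 4 had enough counts to be tested, with a summed level of 3.86 to 9.56 CPM over the 12 libraries. Of these 2, 1 was lower in aged anti-PD-1 than in aged control lungs, where 5.58% of all genes were. For any difference among groups 1 was called. The summed level was 3.86 to 6.49 CPM in aged anti-PD-1 and 6.15 to 9.56 CPM in aged control libraries.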

How the data were processed

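Whole-lung RNA was measured in 12 libraries, 3 per group. Libraries were made with a directional poly(A) kit, per the labels' protocols. The deposited table holds raw counts of reads for each gene, with no normalization by the authors. The submitters' processing notes name featureCounts 1.6.3, HISAT2, Trimmomatic and bcl2fastq 1.8.4, with mm10 as the build. The options, annotation release and strand setting are not given in the sources used here.

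The 10 genes and all lists were chosen with earlier results of these data known. Groups were taken from the labels. Genes were filtered with filterByExpr (minimum count 10, minimum total 15) and scaled by TMM. A quasi-likelihood model with 4 group means was fitted in R 4.3.3 with edgeR 4.0.16 (limma 3.58.1 for voom) to all genes tested, with 8 residual degrees of freedom and a common biological coefficient of variation of 0.156. Tests were two-sided with Benjamini-Hochberg adjustment over all genes. The SE came from the size of the log2 fold change over the root of its F statistic. An exact permutation test of 3 against 3 libraries cannot go below 0.1 and was not used. Scores and correlations used log2 CPM with a prior count of 2. Exon lengths for RPKM came from GENCODE M21, in which 91.0% of the genes and 9 of the 10 members (not Tef) had the deposited coordinates. Plots used matplotlib 3.10.9 under Python 3.11.15.

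Libraries of a group differed beyond counting noise (chi-square per degree of freedom 9.61 to 48.1), and no 2 were counted as 1. Libraries with the same number showed no common deviation: over 18 pairs the correlation was -0.169 to 0.171, with 2 pairs over 0.1. All members, the other clock genes and the rhythmic genes could be named, as could the 8 genes most and least like the score and the 5 most like Dbp and Arntl. Alternatives were RLE factors, library totals, scaling without mitochondrial, haemoglobin and immunoglobulin genes, no filter, a mean CPM of at least 1, DESeq2 1.42.0, limma-voom, fits of 2 groups, a replicate block and leaving out each library. The fit without aged anti-PD-1 libraries 2 and 3 was added after their values were seen. Marker lists also read were T cell, alveolar macrophage, cardiac and skeletal muscle, adipose, erythroid and heat and cold response genes.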

Additional observations from a re-analysis of the deposited data

How the results depend on the processing

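The number of clock genes called was 5, 3, 3 and 0 in the 4 comparisons, in the order of the report (aged against young under anti-PD-1 first, combination against aged control last), and 4 for any difference. It was the same under RLE factors, under scaling without mitochondrial, haemoglobin and immunoglobulin genes, and with a mean CPM of at least 1. Library totals alone gave 5 for combination against aged anti-PD-1 and 7 for any difference, and shifted the median of all genes to -0.21 in that comparison, to -0.10 in combination against aged control and to 0.09 in aged anti-PD-1 against aged control. Without a filter 3 were called between aged and young anti-PD-1 and 2 for any difference, where 2475 and 4122 of 31441 genes were. DESeq2 called 8, 5, 5 and 0, and 9 for any difference, and over all genes it called 3461, 2999, 2595 and 76, and 5809, where edgeR called 2830, 2025, 1674 and 0, and 4198. Limma-voom called 5, 4, 4 and 0, and 5 for any difference, and over all genes it called 2812, 2080, 1625 and 0, and 4208. Fits of only the 2 groups compared called 1 in aged anti-PD-1 against aged control and 1 in combination against aged anti-PD-1. Over all genes, library totals called 3038 in combination against aged anti-PD-1 and 5149 for any difference. The fit of 2 groups called 881 in aged anti-PD-1 against aged control and 1444 in combination against aged anti-PD-1. The fit of all groups called 2025 and 1674 there. No called fold change reversed its sign under any alternative. Calls of single genes were lost or gained in some of these fits. Without a filter Per3 and Nr1d1 lost theirs against young anti-PD-1, Nr1d1 against aged control, and Per2 and Tef in combination against aged anti-PD-1. Fits of 2 groups lost Nr1d1 against young anti-PD-1, Nr1d1 and Npas2 against aged control, and Per3 and Tef in combination against aged anti-PD-1. Library totals lost Nr1d1 against aged control. The cause of these shifts was not tested.

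Leaving out 1 library at a time gave 2 to 10, 0 to 7, 0 to 8 and 0 called clock genes in the 4 comparisons and 2 to 8 for any difference. Without aged anti-PD-1 library 1 the counts were 10, 7, 8 and 0, and 8 for any difference (2237, 1057, 584 and 0, and 3169 of all genes). Without library 2 they were 3, 1, 1 and 0, and 3 for any difference, and the counts over all genes were lower too (1905, 881, 641 and 0, and 2933). Without library 3 they were 4, 1, 1 and 0, and 4 for any difference (1252, 715, 954 and 0, and 3044 of all genes). The lowest counts came without young library 3 (2), aged control library 2 (0) and combination library 2 (0), in the order of the first 3 comparisons, and without young library 2 for any difference (2). Over all genes the first comparison called 1160 without young library 3, 1404 without young library 2 and 1252 without aged anti-PD-1 library 3, the second 607 without aged control library 2, and the third 260 without combination library 2. The test for any difference called 2320 of all genes without young library 2. With aged anti-PD-1 libraries 2 and 3 left out together, the lone library was assumed to vary like the other groups. In that fit Per3 stood at 0.48, 0.72 and -0.88 in the first 3 comparisons, and Npas2 at -1.04 against young anti-PD-1.

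With the replicate number as a block 4, 3, 2 and 0 clock genes were called and 4 for any difference. Of all 18556 genes, 2493, 1702, 1455 and 0 were called, and 3652 for any difference. That fit lost Ciart against young anti-PD-1, Nr1d1 against aged control and Tef in combination against aged anti-PD-1. It gained Arntl against aged control (-0.81, adjusted p = 0.0465, edgeR). The replicate numbers name libraries and do not pair them, so this block is no paired analysis. The lowest counts, 36 and 54 reads for Npas2 in aged anti-PD-1 libraries 2 and 3, and the 3 libraries of each group limit the precision.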

Other observations

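Some genes outside the clock set differed between the same groups, with fold changes from the same edgeR fit. Among lung markers, Sftpc, a surfactant protein gene, was lower in aged than in young anti-PD-1 lungs (-0.78 ± 0.17, adjusted p = 0.00836, edgeR), as were Sftpb and Ager (-1.10 ± 0.33, adjusted p = 0.0401, edgeR). Pecam1, an endothelial adhesion gene, was higher in aged anti-PD-1 than in aged control lungs (0.73 ± 0.14, adjusted p = 0.00857, edgeR) and lower in combination than in aged anti-PD-1 lungs (-0.81 ± 0.14, adjusted p = 0.00656, edgeR). Of 4 erythroid genes 3 were higher in combination than in aged anti-PD-1 lungs, with a summed level of 18638 to 45940 CPM against 9746 to 12826 CPM. Of 4 T cell markers, Cd3e and Cd4 were higher in aged than in young anti-PD-1 lungs. Of 7 heat and cold response genes, Hsph1, a chaperone gene, was higher in aged than in young anti-PD-1 lungs (0.92 ± 0.22, adjusted p = 0.0164, edgeR) and lower in combination than in aged anti-PD-1 lungs (-0.82 ± 0.23, adjusted p = 0.0398, edgeR), and Cirbp, a gene induced by cold, was higher in that last comparison (0.60 ± 0.17, adjusted p = 0.0409, edgeR). Of 5 cardiac muscle genes Nppa was higher in aged than in young anti-PD-1 lungs (1.48 ± 0.33, adjusted p = 0.0131, edgeR). No tested marker of skeletal muscle, adipose tissue or alveolar macrophages was called in any of the 4 comparisons. The part of these genes in the clock values was not tested.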
